A study of Mus musculus with 13 samples.

Results

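Costimulatory and coinhibitory ligands are the surface molecules by which an antigen-presenting cell adds a positive or a negative signal to the antigen it shows a T cell. Their transcripts were followed here in 6 leukocyte populations sorted from mouse spleen. The set held 9 genes: Cd80 and Cd86, the B7 ligands of the activating receptor CD28 and the inhibitory receptor CTLA4; Icosl, the ligand of ICOS; Cd274 and Pdcd1lg2, which encode PD-L1 and PD-L2, the ligands of the inhibitory receptor PD-1; Cd40, the receptor through which helper T cells activate antigen-presenting cells; Cd83, a glycoprotein of mature dendritic cells (DCs) and activated B cells; and Cd70 and Tnfsf4, tumour necrosis factor family ligands of CD27 and OX40. The members were taken by name: each probe set that the array annotation gave to 1 of these symbols and to no other was a candidate, and the 1 with the highest mean over the 13 arrays stood for its gene. All 9 genes were found, with 16 probe sets in all, among 18193 genes that had such a probe set and 45101 probe sets on the array.

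A T cell that meets antigen without these signals is known to respond weakly, so the cells that carry them shape the response. Conventional DCs (cDCs) prime naive T cells and are known to raise CD80, CD86, CD40 and CD83 further as they mature. Plasmacytoid DCs (pDCs) secrete type I interferon and prime T cells poorly until they are activated, and B cells present antigen to T cells that are already primed.

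The 13 Affymetrix mouse genome arrays comprised 2 each of CD8α cDCs, CD11b cDCs, pDCs, NK cells and CD8 T cells and 3 of B cells, all from untreated wild-type C57BL/6 mice. Each DC array was made from the pooled spleens of 10 to 15 mice and each NK cell array from 6 to 10. B cell replicate 1 pooled 3 mice and replicate 2 pooled 2, while B cell replicate 3 and the CD8 T cell arrays were from single mice. B cell replicates 2 and 3 were described as follicular B cells and replicate 1 as B lymphocytes only. Ages of 6 to 8 weeks were given for CD8α cDC replicate 1 and both CD8 T cell arrays and 6 weeks for B cell replicates 2 and 3. DCs were sorted as lineage-negative cells by CD11c with CD8α, CD11b or the 120G8 antibody, and NK cells as NK1.1-positive cells without a T cell receptor.

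Values are MAS5 signals, which express each probe set on an array scaled to a target intensity of 100. Array medians ran from 13.5 to 20.8, and between 29.1% and 34.3% of probe sets gave at least 50. Replicates correlated at 0.975 to 0.987 (Pearson, over the genes tested), except that B cell replicate 1 correlated at 0.934 and 0.935 with the other B cell arrays. Summed over each list, the markers of a sorted population were highest in it, although the single markers Itgae (means of 886 in CD8α cDCs and 1060 in CD8 T cells), Ly75 (196 and 242) and Cx3cr1 (143 in CD11b cDCs and 153 in pDCs) were not. The summed signal of 6 pDC markers was 19200 to 21800 in pDCs and at most 1840 elsewhere, that of 5 CD8α cDC markers 5270 to 5290 in CD8α cDCs and at most 1330 elsewhere, that of 4 CD11b cDC markers 2590 to 2780 in CD11b cDCs and at most 1150 elsewhere, that of 4 B cell markers 14500 to 20400 in B cells and at most 490 elsewhere, that of 3 NK cell markers 12400 to 13800 in NK cells and at most 4450 elsewhere, and that of 5 T cell markers 7030 to 7890 in CD8 T cells and at most 327 elsewhere. The ratio of the 3' to the 5' GAPDH control signal was 23.9 and 11.2 for the NK cell arrays, above the 3.46 to 6.30 seen for all others. The arrays were scanned on 5 days, and DC and lymphocyte arrays shared neither a scan day nor a chip lot, so in every comparison of DCs with lymphocytes batch and cell family cannot be told apart. CD8 T cell arrays also shared neither with NK or B cell arrays, so the same holds for CD8 T cells against those. Xist and Y-linked transcripts showed female RNA on all DC arrays and B cell replicate 2 and male RNA on the other arrays, against the label on 3 of the 5 arrays that had one (B cell replicate 2 and both CD8 T cell arrays). Apart from B cell replicate 2, sex thus followed cell family, and its part in comparisons of DCs with lymphocytes was not tested. No member lies on a sex chromosome.

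For testing, signals below 20 were set to 20 and log2 transformed, and a gene was tested only if it reached 50 on every array of at least 1 population. Of the 9 members, 7 passed. Cd70 and Tnfsf4 did not: the highest signal over the 13 arrays was 20.7 for Cd70 and 26.2 for Tnfsf4, so no population carried either at a level that could be compared. A member that passed only through the population where it was high had to differ somewhere, so counts over the 7 describe them and carry no support of their own. This holds for Cd80, which passed only through the cDC subsets, and Pdcd1lg2, which passed only through CD11b cDCs. The p-values that set those populations apart in these genes are likewise descriptions. Since RNA was taken in bulk from sorted cells, fewer positive cells and less RNA per cell cannot be told apart. The array values of all members are plotted by population.

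**Figure D1:**
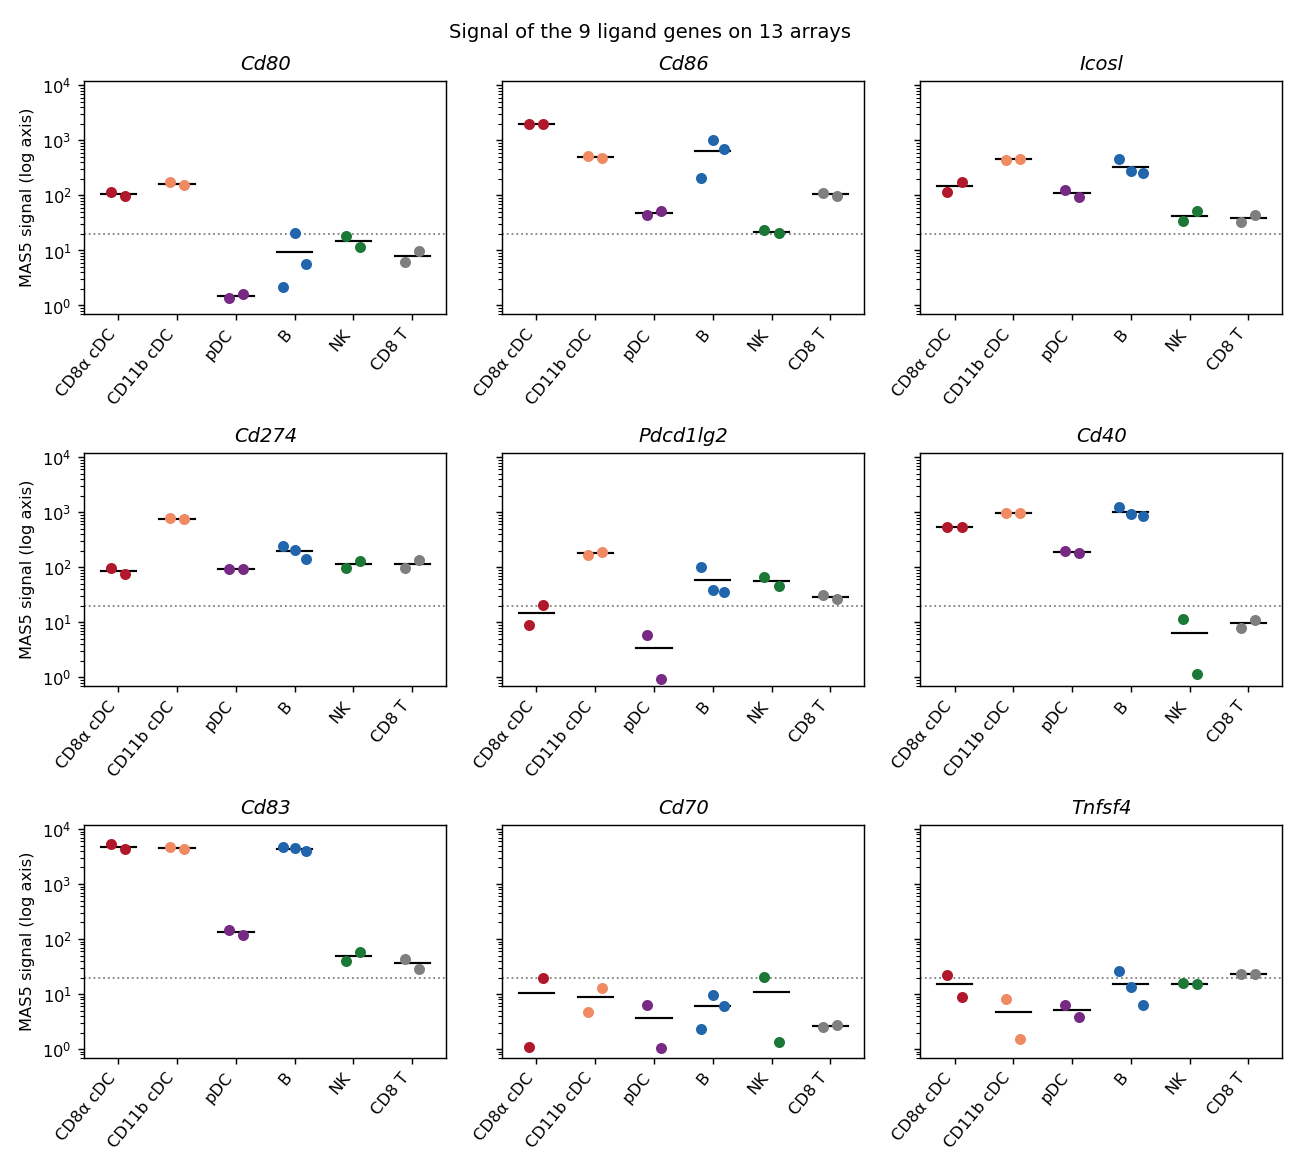
MAS5 signal (log axis) of the 9 ligand genes on the 13 arrays, by population, with each point an array, each bar the mean and the dotted line the floor of 20. Cd83 stood at 3910 to 5290 in both cDC subsets and B cells and at 119 and 149 in pDCs, and Cd70 and Tnfsf4 stayed at or below 26.2 on every array.

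Cd80 was a transcript of cDCs. Its signals were 115 and 96.9 in CD8α cDCs and 172 and 155 in CD11b cDCs, against 1.38 and 1.60 in pDCs, 2.14, 20.6 and 5.56 in B cells, 18.2 and 11.5 in NK cells and 6.18 and 9.58 in CD8 T cells. Every cDC array lay above every other array, and of the rest only B cell replicate 2 was above the floor. With pDCs at the floor, Cd80 was at least 6.56-fold higher in cDCs than in pDCs (log2 difference 2.71 ± 0.13 (SE), limma, adjusted p = 4.67e-08) and at least 6.49-fold higher than in B cells (2.70 ± 0.11, adjusted p = 1.13e-08). The order was CD11b cDCs, CD8α cDCs and then the other 4 populations, none of which differed from its neighbour. Of the 3 other probe sets of Cd80, 1 followed the same pattern (r = 0.971 over the 13 arrays), 1 reached only 42.6 (r = 0.472) and 1 stayed at or below 11.2.

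Cd86 took a different order, with CD8α cDCs first. Its signals were 1960 and 1960 in CD8α cDCs, 513 and 488 in CD11b cDCs, 43.8 and 53.1 in pDCs, 210, 1020 and 695 in B cells, 23.4 and 20.4 in NK cells and 112 and 97.0 in CD8 T cells. The 2 CD8α cDC arrays lay above all others, whereas CD11b cDCs fell within the range of the 3 B cell arrays. CD8α cDCs exceeded B cells by 1.88 ± 0.50 (log2, adjusted p = 0.00877), B cells and CD11b cDCs did not differ beyond their spread (0.08 ± 0.50, adjusted p = 0.930), and CD11b cDCs exceeded CD8 T cells by 2.26 ± 0.54 (adjusted p = 0.00566). CD8 T cells against pDCs (1.11 ± 0.54, adjusted p = 0.124) and pDCs against NK cells (1.14 ± 0.54, adjusted p = 0.112) did not pass. The second probe set of Cd86 gave the same profile (r = 0.989), with 1020 and 1090 in CD8α cDCs, 216 and 215 in CD11b cDCs and 57.0 and 52.5 in CD8 T cells.

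The spread of Cd86 over the 3 B cell arrays set the error of every Cd86 comparison, because 1 variance was fitted over all populations. B cell replicate 1, at 210, was also the array that stood apart in its other transcripts: Jchain, the joining chain of secreted antibody, was at 7870 there, against 92.1 and 332 on replicates 2 and 3, whereas the plasma cell markers Sdc1 (82.8, against 182 and 241) and Prdm1 (39.6, against 36 and 47.3) showed no such excess. B cell replicate 1 also differed from replicates 2 and 3 in RNA amount (100 ng against 50 ng), chip lot and the name prefix of the samples. The part of sort, donor, batch and plasma cells in the Cd86 values was not tested.

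Icosl was highest in CD11b cDCs and B cells. Its signals were 117 and 176 in CD8α cDCs, 437 and 465 in CD11b cDCs, 123 and 95.3 in pDCs, 465, 282 and 252 in B cells, 34.9 and 51.5 in NK cells and 33.2 and 43.9 in CD8 T cells. The profile formed 3 tiers: CD11b cDCs and B cells overlapped (0.49 ± 0.30, adjusted p = 0.214), CD8α cDCs and pDCs overlapped below them (0.41 ± 0.32, adjusted p = 0.369), and NK and CD8 T cells overlapped at the bottom (0.15 ± 0.32, adjusted p = 0.777). The steps between the tiers passed: B cells exceeded CD8α cDCs by 1.16 ± 0.30 (adjusted p = 0.00746), and pDCs exceeded NK cells by 1.35 ± 0.32 (adjusted p = 0.00616). A second Icosl probe set did not exceed 25.7 on any array.

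PD-L1 and PD-L2 are encoded by successive protein-coding genes, Cd274 and Pdcd1lg2, on chromosome 19 in RefSeq. The starts of 4 of the 9 members, these among them, were in the RefSeq promoter table used (GRCm38.p6). The windows of this gene pair, from 250 bases before to 50 bases after the annotated start, are shown because the pair shared its peak in CD11b cDCs. Capitals mark a match to the κB consensus of the NF-κB factors, searched on both strands.
Cd274 (chr19:29367188-29367487, plus strand): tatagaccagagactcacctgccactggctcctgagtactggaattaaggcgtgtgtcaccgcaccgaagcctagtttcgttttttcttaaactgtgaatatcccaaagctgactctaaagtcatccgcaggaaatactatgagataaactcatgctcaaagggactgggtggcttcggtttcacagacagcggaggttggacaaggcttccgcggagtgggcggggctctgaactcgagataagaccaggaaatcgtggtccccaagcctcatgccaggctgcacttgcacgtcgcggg
Pdcd1lg2 (chr19:29410669-29410968, plus strand): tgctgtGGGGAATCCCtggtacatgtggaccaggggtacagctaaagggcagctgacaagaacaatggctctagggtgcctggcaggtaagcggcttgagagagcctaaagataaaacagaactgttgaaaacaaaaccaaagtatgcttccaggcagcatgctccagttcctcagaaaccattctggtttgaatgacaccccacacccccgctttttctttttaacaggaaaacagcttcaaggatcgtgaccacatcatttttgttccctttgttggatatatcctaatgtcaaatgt
The κB match in the Pdcd1lg2 window lay at -244 to -235 from the start, and the Cd274 window held none. Of 32851 RefSeq promoter windows of this length, 4.51% held the consensus. The STAT motif TTCNNNGAA (in 8.30% of all windows) and the interferon-stimulated response element (0.17%) were not among the letters of either window. A match describes these letters only and is no measured binding site.

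Both PD-1 ligands were carried chiefly by CD11b cDCs. Cd274 had signals of 95.9 and 74.7 in CD8α cDCs, 779 and 749 in CD11b cDCs, 91.6 and 94.5 in pDCs, 241, 210 and 140 in B cells, 97.8 and 132 in NK cells and 95.3 and 134 in CD8 T cells. It was above 50 on all 13 arrays, yet only CD11b cDCs and B cells stood clear of the rest. CD11b cDCs exceeded B cells by 1.99 ± 0.25 (adjusted p = 9.42e-05) and B cells exceeded NK cells by 0.76 ± 0.25 (adjusted p = 0.0344). Within the scan day that held B cell replicates 1 and 2 with both NK cell arrays, the difference of B cells from NK cells was 0.99 (adjusted p = 0.0506). NK cells, CD8 T cells, pDCs and CD8α cDCs, in that order, did not differ from their neighbours.

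Pdcd1lg2 was more restricted. Its signals were 9.07 and 20.6 in CD8α cDCs, 170 and 189 in CD11b cDCs, 5.82 and 0.937 in pDCs, 102, 38.8 and 36.2 in B cells, 67.3 and 46.0 in NK cells and 31.6 and 26.1 in CD8 T cells. Both CD11b cDC arrays lay above all others, and pDCs had both arrays under the floor. CD11b cDCs exceeded B cells, the next in order, by 1.78 ± 0.38 (adjusted p = 0.00314). From B cells through NK cells, CD8 T cells and CD8α cDCs to pDCs no neighbours differed, although pDCs were at least 2.78-fold below NK cells (-1.48 ± 0.41, adjusted p = 0.0137). B cell replicate 1 gave the highest Pdcd1lg2, Icosl and Cd274 signals and the lowest Cd86 signal of the B cell arrays.

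Cd274 was among the 3 genes whose profile was most like that of Pdcd1lg2 (r = 0.889 over the 13 arrays, of log2 signals floored at 20). The correlation rests on the shared peak in CD11b cDCs and on arrays that share scan days, and is given as a description. By contrast, Cd80 and Cd86 correlated at 0.628. The 2 pairs are plotted against each other.

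**Figure D2:**
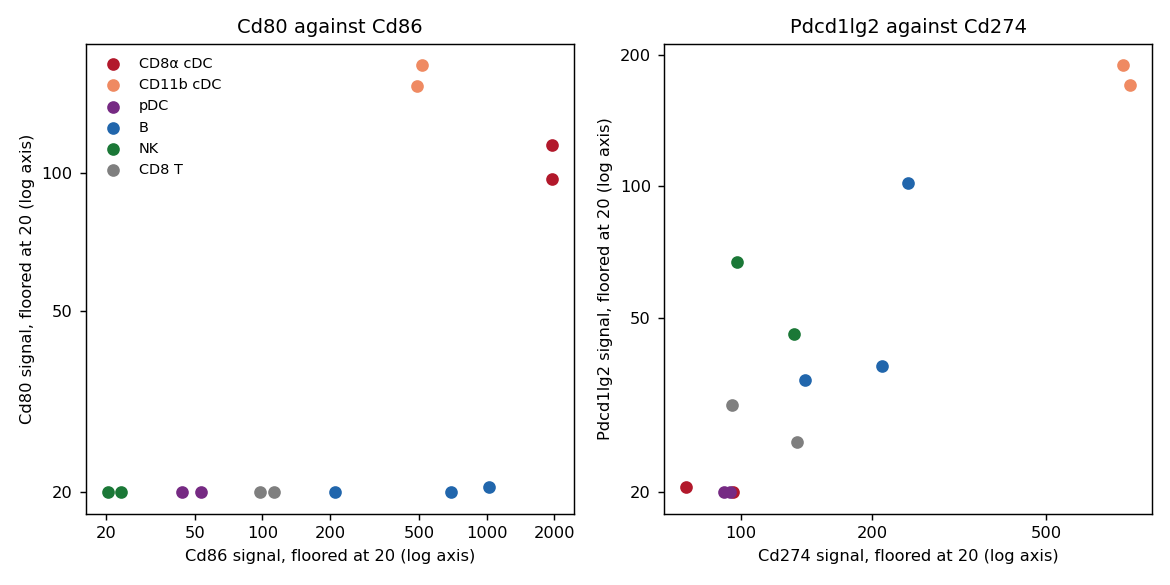
Signals floored at 20 (log axes) of Cd80 against Cd86 and of Pdcd1lg2 against Cd274 on the 13 arrays, with a colour for each population. Cd80 left the floor on the cDC arrays, with 20.6 on 1 B cell array, while Cd86 spanned 20.4 to 1960, and both CD11b cDC arrays lay at the top right of the PD-1 ligand plot.

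Cd40 was high in B cells and CD11b cDCs and graded down through the other DCs. Its signals were 532 and 533 in CD8α cDCs, 958 and 979 in CD11b cDCs, 195 and 179 in pDCs, 1270, 942 and 862 in B cells, 11.5 and 1.15 in NK cells and 7.83 and 11.2 in CD8 T cells. The 3 DC populations did not overlap one another, and NK and CD8 T cells were below the floor on every array. B cells and CD11b cDCs did not differ beyond their spread (0.06 ± 0.17, adjusted p = 0.819), CD11b cDCs exceeded CD8α cDCs by 0.86 ± 0.19 (adjusted p = 0.00795), and CD8α cDCs exceeded pDCs by 1.51 ± 0.19 (adjusted p = 9.29e-05). Below them, pDCs exceeded CD8 T cells by at least 3.22 ± 0.19 on the log2 scale (adjusted p = 1.88e-07). The other 2 probe sets of Cd40 followed it (r = 0.999 and 0.984).

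Cd83 was abundant in cDCs and B cells and low in pDCs. Its signals were 5290 and 4290 in CD8α cDCs, 4620 and 4240 in CD11b cDCs, 149 and 119 in pDCs, 4680, 4550 and 3910 in B cells, 40.3 and 57.8 in NK cells and 43.1 and 29.1 in CD8 T cells. Both cDC subsets and B cells shared a high level and overlapped, with differences of 0.11 ± 0.24 between CD8α and CD11b cDCs (adjusted p = 0.848) and 0.02 ± 0.22 between CD11b cDCs and B cells (adjusted p = 0.976). The 95% interval of the first ran from -0.43 to 0.65. pDCs exceeded NK cells by 1.46 ± 0.24 (adjusted p = 0.000632), and NK and CD8 T cells overlapped.

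The first comparison asked whether the mean of both cDC subsets differed from pDCs. All 7 tested members were higher in cDCs, where 36.7% of the 9379 genes tested passed (19.1% as higher, 17.7% as lower). The median log2 difference was 1.94 over the members and 0.00 over all genes tested. The difference was 5.11 ± 0.21 for Cd83 (34.5-fold, adjusted p = 1.69e-08), 4.36 ± 0.47 for Cd86 (20.5-fold, adjusted p = 2.95e-05), 1.94 ± 0.16 for Cd40 (3.84-fold, adjusted p = 4.15e-06), at least 1.59 ± 0.36 for Pdcd1lg2, which was under the floor in pDCs (adjusted p = 0.00479), 1.45 ± 0.24 for Cd274 (2.73-fold, adjusted p = 0.000661) and 1.23 ± 0.28 for Icosl (2.35-fold, adjusted p = 0.00537). For Cd274, Pdcd1lg2 and Icosl this average hid a split. CD11b cDCs exceeded pDCs by 3.04 ± 0.28 in Cd274 (adjusted p = 9.21e-06), by at least 3.16 ± 0.41 in Pdcd1lg2 (adjusted p = 0.000144) and by 2.06 ± 0.32 in Icosl (adjusted p = 0.000595). CD8α cDCs differed from pDCs by -0.14 ± 0.28 in Cd274 (adjusted p = 0.756) and by 0.41 ± 0.32 in Icosl (adjusted p = 0.369), and with Pdcd1lg2 at or near the floor in both they gave no comparison for it. All 7 calls also passed on the 5 DC arrays scanned on 1 day, while Icosl lost its call without pDC replicate 2 (1.05, adjusted p = 0.0781) and Cd40 without a floor (1.94, adjusted p = 0.0621).

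The second comparison set CD8α cDCs against CD11b cDCs. Of the 7 members, 6 differed, 1 higher and 5 lower in CD8α cDCs, where 19.5% of all genes tested passed, 8.96% as higher and 10.6% as lower. Cd86 was the 1 that was higher, by 1.97 ± 0.54 (3.91-fold, adjusted p = 0.0269). Cd274 gave -3.17 ± 0.28 (9.02-fold lower, adjusted p = 1.15e-05) and Pdcd1lg2 -3.14 ± 0.41 (at least 8.82-fold lower, adjusted p = 0.000255). The others were Icosl, at -1.65 ± 0.32 (3.14-fold lower, adjusted p = 0.00421), Cd40, at -0.86 ± 0.19 (1.82-fold lower, adjusted p = 0.00795), and Cd80, at -0.63 ± 0.15 (1.55-fold lower, adjusted p = 0.0125). On the probe sets used, the B7 ligands of CD28 ran in opposite directions between the cDC subsets. For Cd80, 1 other probe set ran likewise (83.5 and 106 in CD8α cDCs, 154 and 121 in CD11b cDCs). Another, near the floor, ran the other way (23.6 and 42.6 against 20.9 and 20.9).

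The Cd86 call in this comparison lost its adjusted p in 13 of 26 alternatives, among them leaving out either array of either subset (adjusted p = 0.119 to 0.134), while the difference stayed between 1.66 and 2.13; without B cell replicate 1 its adjusted p was 4.37e-05. The Cd80 call was lost in 5, among them the mean of its probe sets (-0.14, adjusted p = 0.541) and the DC arrays of 1 scan day (-0.56, adjusted p = 0.128). The Cd40 call was lost without a floor (-0.86, adjusted p = 0.541) and with the mean of probe sets (-0.73, adjusted p = 0.0628), and the Icosl call without CD8α cDC replicate 1 (-1.36, adjusted p = 0.0527). Macrophage and monocyte transcripts were, summed, higher in the CD11b subset: 8 such markers summed to 2090 to 2500 in CD8α cDCs and 7410 to 8280 in CD11b cDCs, with Csf1r at 247 and 349 against 3190 and 3470 and Adgre1 at 42.6 and 51.5 against 1300 and 1500. Vcam1 ran the other way, at 170 and 171 in CD8α cDCs and 75.9 and 84.2 in CD11b cDCs. Marco stayed below the floor in both, and Cd14 gave 50.8 and 34.9 in CD8α cDCs, against 54.1 and 83.7 in CD11b cDCs. The 3 NK cell markers also summed higher in the CD11b subset, to 152 to 306 in CD8α cDCs and 2410 to 2620 in CD11b cDCs. Klrd1 gave 149 and 282 in CD8α cDCs, against 2340 and 2140 in CD11b cDCs, and Tbx21 2.76 and 11.4 against 273 and 264, while Ncr1, a defining NK cell receptor, was below the floor in both. The part of these transcripts in the higher Cd274, Pdcd1lg2, Icosl, Cd40 and Cd80 signals of CD11b cDCs was not tested.

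**Figure D3:**
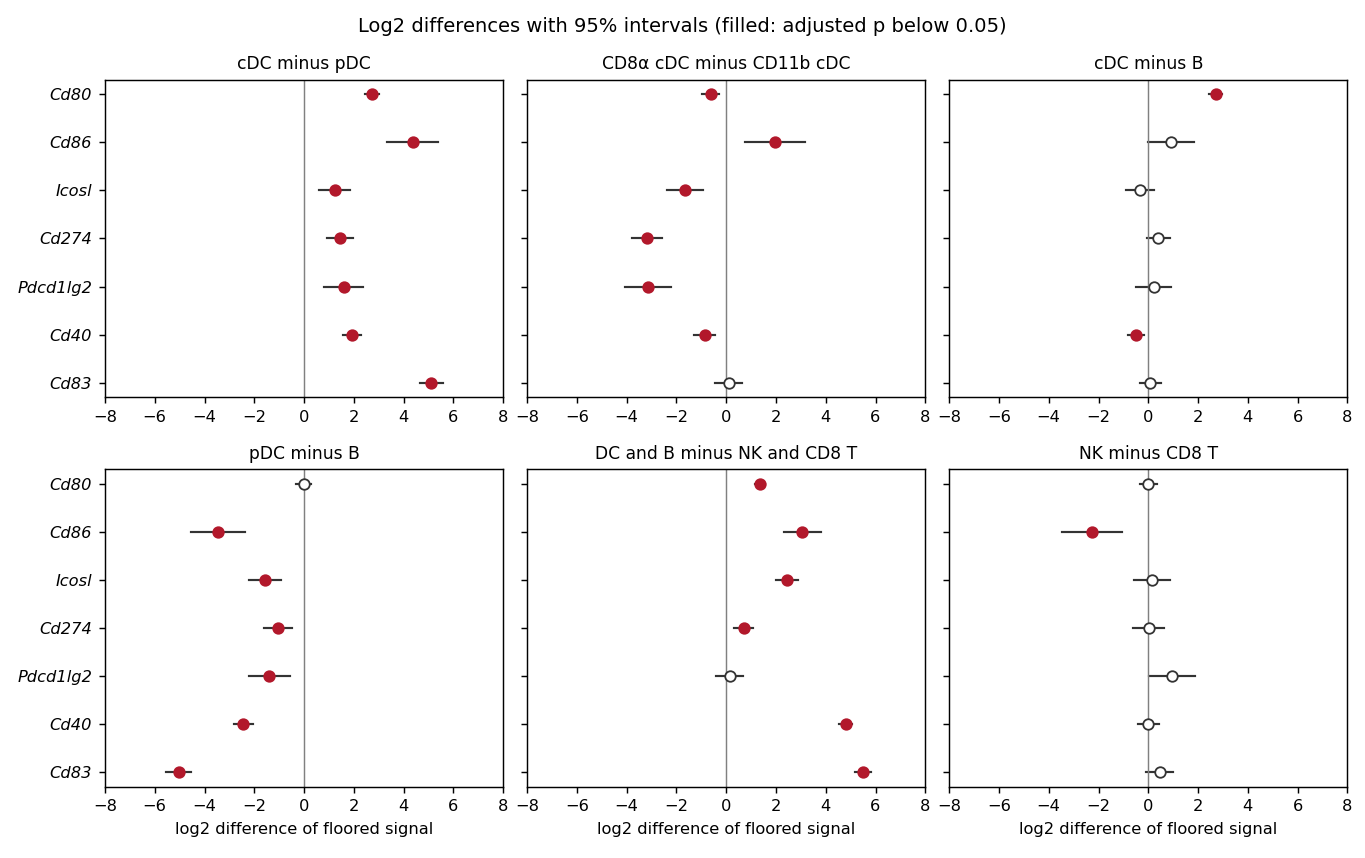
Log2 difference of floored signals (first population minus second) of the 7 tested members in 6 comparisons, with 95% intervals from limma and filled points where the adjusted p was below 0.05. All 7 points lie right of 0 for cDCs minus pDCs, and 6 of 7 lie left of 0 and filled for pDCs minus B cells.

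Against B cells, the other antigen-presenting population, cDCs differed in 2 of the 7 members, where 54.4% of all genes tested passed (28% as higher, 26.4% as lower). Cd80 was higher in cDCs, as given above, and Cd40 was lower (-0.49 ± 0.14, 1.41-fold, adjusted p = 0.0141), a call that was lost with the mean of probe sets (-0.35, adjusted p = 0.134) and without a floor (-0.49, adjusted p = 0.533). Cd86 (0.90 ± 0.41, adjusted p = 0.0900), Cd274 (0.40 ± 0.21, adjusted p = 0.132), Pdcd1lg2 (0.21 ± 0.31, adjusted p = 0.615), Icosl (-0.34 ± 0.25, adjusted p = 0.278) and Cd83 (0.07 ± 0.19, adjusted p = 0.783) did not pass. Their 95% intervals still allowed sizeable differences, from -0.02 to 1.82 for Cd86 and from -0.89 to 0.21 for Icosl. The average again joined opposite subsets, since CD8α cDCs were below B cells in Cd274 (-1.18 ± 0.25, adjusted p = 0.00268), Pdcd1lg2 (at least 2.58-fold, -1.37 ± 0.38, adjusted p = 0.0112), Icosl (-1.16 ± 0.30) and Cd40 (-0.92 ± 0.17, adjusted p = 0.00115) and CD11b cDCs were above B cells in Cd274 and Pdcd1lg2. The median log2 difference was 0.21 over the members and -0.01 over all genes.

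These comparisons leaned on the B cell array used. Without B cell replicate 1, 4 members passed: Pdcd1lg2 (0.69, adjusted p = 0.00512) and Cd274 (0.57, adjusted p = 0.0442) joined Cd80 and Cd40. With replicate 1 as the only B cell array, 4 members passed, and Cd86 was at 2.24 (adjusted p = 3.18e-05) and Pdcd1lg2 at -0.76 (adjusted p = 0.0264).

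**Figure D4:**
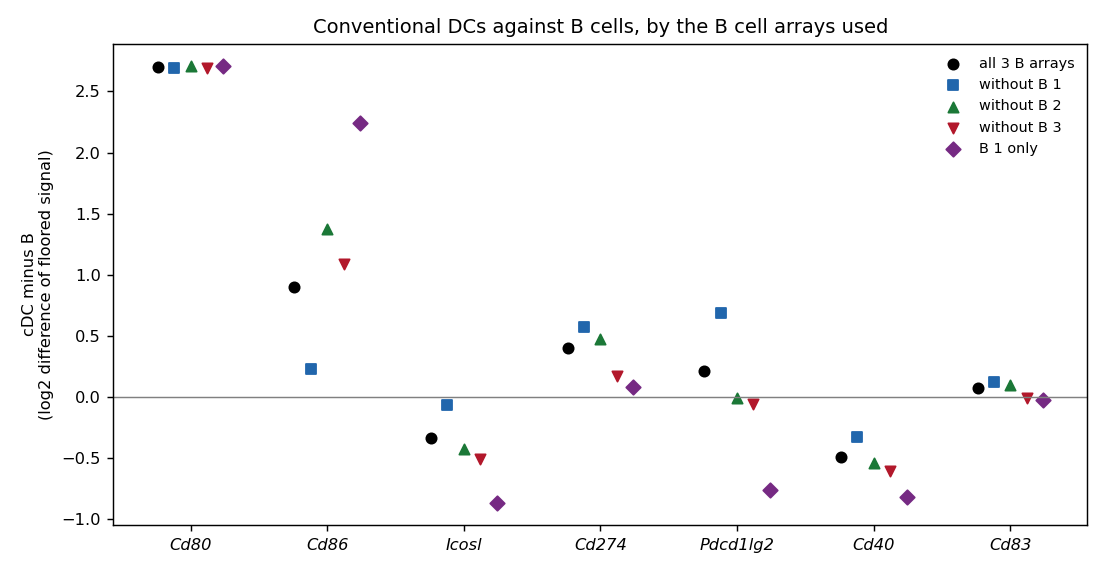
Log2 difference of cDCs minus B cells for the 7 tested members with all 3 B cell arrays, without each in turn and with replicate 1 alone. Cd80 stayed between 2.69 and 2.71 whichever arrays were used, while Cd86 ranged from 0.23 without replicate 1 to 2.24 with replicate 1 alone.

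pDCs, the DC population often set beside B cells, carried less of these transcripts than B cells did. Of the 7 members, 6 were lower in pDCs, where 42.4% of all genes tested passed (21.6% as higher, 20.8% as lower). The differences were -5.04 ± 0.22 for Cd83 (32.8-fold lower, adjusted p = 2.47e-08), -3.46 ± 0.50 for Cd86 (11.0-fold lower, adjusted p = 0.000255), -2.44 ± 0.17 for Cd40 (5.41-fold lower, adjusted p = 1.10e-06), -1.57 ± 0.30 for Icosl (2.97-fold lower, adjusted p = 0.00163), -1.39 ± 0.38 for Pdcd1lg2 (at least 2.62-fold lower, adjusted p = 0.0125) and -1.05 ± 0.25 for Cd274 (2.07-fold lower, adjusted p = 0.00693). Cd80, under the floor in pDCs and on 2 of the 3 B cell arrays, gave no comparison. The Pdcd1lg2 call was lost with a floor of 50 (-0.34, adjusted p = 0.384), without the filter (-1.39, adjusted p = 0.0623) and without either pDC array (adjusted p = 0.0756 and 0.0751). pDCs still held Cd40, Icosl, Cd274 and Cd83 at 91.6 to 195 on every array. In Cd40, Icosl and Cd83 they exceeded both NK and CD8 T cells. In Cd274 they did not differ from NK cells (-0.29 ± 0.28, adjusted p = 0.431) or CD8 T cells (-0.28 ± 0.28, adjusted p = 0.448).

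Taking both cDC subsets, pDCs and B cells together against NK and CD8 T cells, 6 of the 7 members were higher in the antigen-presenting populations, where 56.7% of all genes tested passed (28.9% as higher, 27.8% as lower). Cd83 (5.50 ± 0.15, 45.2-fold, adjusted p = 3.07e-10) and Cd40 (at least 4.80 ± 0.11 on the log2 scale, adjusted p = 1.55e-10) were higher, as were Cd86 (3.06 ± 0.33, adjusted p = 1.59e-05), Icosl (2.44 ± 0.20, adjusted p = 1.64e-06), Cd80 (1.36 ± 0.09, adjusted p = 3.55e-07) and Cd274 (0.70 ± 0.17, adjusted p = 0.00437). The Cd80 value is no bound, since the floor raised signals on both sides of this comparison. Pdcd1lg2 did not pass (0.14 ± 0.25, adjusted p = 0.645), and the Cd80 call was lost without a floor (0.92, adjusted p = 0.143). The median log2 difference was 2.44 over the members and -0.01 over all genes. The averages mix unlike populations: the Cd80 signals of pDCs and B cells lay with those of NK and CD8 T cells, and Cd274 in CD8α cDCs and pDCs did not pass against NK or CD8 T cells (for CD8α cDCs -0.42 ± 0.28 against either, adjusted p = 0.227).

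Between NK and CD8 T cells, 1 of the 7 members differed, where 38.1% of all genes tested passed (21.5% as higher, 16.6% as lower). Cd80 and Cd40 were under the floor on all 4 arrays, so they gave no comparison and could not be called. The arrays of these populations shared neither a scan day nor a chip lot, so batch and population cannot be told apart here. Cd86 was lower in NK cells, at 23.4 and 20.4 against 112 and 97.0 in CD8 T cells (-2.25 ± 0.54, 4.77-fold, adjusted p = 0.00794). The call was lost with the name prefix of the samples (2 sets of arrays) as a block (-0.25, adjusted p = 0.594), with a floor of 50 (-1.06, adjusted p = 0.178), without NK cell replicate 2 (-2.15, adjusted p = 0.0587) and without CD8 T cell replicate 1 (-2.15, adjusted p = 0.0594). Only B cells had arrays of both prefixes, so the prefix block was set by B cell replicate 1 against replicates 2 and 3. Pdcd1lg2 did not pass (0.95 ± 0.41, adjusted p = 0.0927). Beside these values, the NK cell arrays had the raised GAPDH 3' to 5' ratio, and the B cell markers summed to between 69.4 and 95.4 on NK cell arrays and between 177 and 234 on CD8 T cell arrays. Most of that sum on CD8 T cell arrays was Cd79b, at 131 and 128, against 30.5 and 27.7 on NK cell arrays. Ms4a1 gave 65.4 and 23.2 against 4.06 and 20.4. Cd79a ran the other way, at 20.2 and 22.4 against 33.5 and 28, and Pax5 was below the floor on all 4 arrays. The DC markers summed to between 2970 and 2980 on NK cell arrays, where Itgax, which NK cells also express, made up 2920 and 2930, and to between 119 and 169 on CD8 T cell arrays. Flt3, a defining DC marker, was below the floor on all 4 arrays. Zbtb46, the remaining DC marker, gave 43.7 and 35 on NK cell arrays and 9.11 and 1.86 on CD8 T cell arrays. The part of these in the Cd86 signal was not tested.

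The receptors that bind these molecules on T cells were listed alongside. Of 7 genes (the receptors and Cd40lg, the ligand of CD40), 5 were tested, and 4 of them were lower in the antigen-presenting populations than in NK and CD8 T cells, where 27.8% of all genes were lower (median -2.64 over the list, -0.01 over all genes). Cd28, the receptor of both B7 ligands, averaged 247 ± 1.22 in NK cells, against 992 ± 181 in CD8 T cells (SD, n = 2 each), and the antigen-presenting populations differed from them by -4.13 ± 0.18 (adjusted p = 1.36e-08), a lower bound in size since both cDC subsets were under the floor. Cd27, the receptor of CD70, averaged 435 ± 44.8 in NK cells, against 436 ± 32.1 in CD8 T cells (SD, n = 2 each), although its ligand transcript was not measurable in any population. Pdcd1, the receptor of PD-L1 and PD-L2, and Cd40lg did not reach the filter. Icos was also present in cDCs, with 109 ± 15.1 in the CD8α and 247 ± 39.4 in the CD11b subset (SD, n = 2 each), and exceeded pDCs, which were under the floor, by at least 3.03 ± 0.23 (adjusted p = 1.75e-06).

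Genes that transmit the CD40 signal split the cDC subsets in the direction of Cd40 itself. Of 8 listed, 7 were measured and tested, and 4 were lower in CD8α than in CD11b cDCs and none higher, where 10.6% of all genes were lower and 8.96% higher (median -1.06, against 0.00 over all genes): Traf1 (-1.51 ± 0.38, adjusted p = 0.0175), Birc2 (-1.23 ± 0.22, adjusted p = 0.00257), Traf2 (-1.11 ± 0.17, adjusted p = 0.000897) and the noncanonical NF-κB kinase Map3k14 (-1.06 ± 0.27, adjusted p = 0.0182). Against pDCs, 4 were higher in cDCs, as were 19.1% of all genes. Against B cells, 2 were higher and 3 lower in cDCs, as were 28% and 26.4% of all genes. The higher were Traf1 (1.57 ± 0.29, adjusted p = 0.000977) and Map3k14 (0.78 ± 0.21, adjusted p = 0.00802). In pDCs 4 were lower than in B cells and none higher, where 20.8% and 21.6% of all genes were. Traf5, an adaptor of CD40, was among the lower in cDCs (-1.55 ± 0.17, adjusted p = 2.00e-05) and in pDCs (-2.74 ± 0.20, adjusted p = 1.44e-06).

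Of 10 genes known to rise as DCs mature, 8 were tested and all 8 were higher in cDCs than in pDCs, as were 19.1% of all genes (median 2.20, against 0.00 over all genes), among them Ccr7, the homing receptor for lymph nodes (3.59 ± 0.31, adjusted p = 4.67e-06), and Fscn1, which bundles actin in dendrites (1.98 ± 0.25, adjusted p = 8.69e-05). Between the cDC subsets the list was divided. Relb (-2.44 ± 0.40, adjusted p = 0.00134), Marcksl1, Socs2 and Fscn1 were lower in CD8α than in CD11b cDCs, while Il12b (1.63 ± 0.16, adjusted p = 3.50e-05), Il15 (1.52 ± 0.24, adjusted p = 0.000822) and Ccl22 (1.15 ± 0.29, adjusted p = 0.0173) were higher. Among the members called, Cd86 had the sign of Il12b, Il15 and Ccl22, and the other 5 that of Relb.

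Among 4 genes of CD86 and MHC class II (the ligases Marchf1 and Marchf8, the class II chain H2-Ab1 and Ciita), none passed between CD8α and CD11b cDCs. Marchf1, the ubiquitin ligase that removes CD86 and MHC class II from the surface, averaged 1140 ± 98.5 in CD8α cDCs, 575 ± 38.0 in CD11b cDCs, 267 ± 74.1 in pDCs and 451 ± 293 in B cells (SD, n = 3 for B cells and 2 otherwise), and was higher in cDCs than in pDCs (1.63 ± 0.37, adjusted p = 0.00513). In mice CD83 is known to oppose this ligase. Ciita, the class II transactivator, was higher in cDCs than in pDCs (1.99 ± 0.19, adjusted p = 1.33e-05) and than in B cells (1.71 ± 0.17, adjusted p = 1.12e-05).

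Other ligands of the B7, butyrophilin and tumour necrosis factor families did not follow the members as a group. Of 12 listed, 9 had a probe set of their own and 6 were tested, of which 1 was higher and 1 lower in cDCs than in pDCs, against 19.1% and 17.7% of all genes (median -0.31). Tnfsf14, which encodes LIGHT, was lower in CD8α than in CD11b cDCs (-2.76 ± 0.19, adjusted p = 1.99e-06), with signals of 8.51 and 18.9 against 111 and 166. As both CD8α cDC arrays were under the floor, this is a lower bound in size. Tnfsf9, the 4-1BB ligand, averaged 35.1 ± 10.6 in CD8α cDCs, 98.1 ± 25.4 in CD11b cDCs and 106 ± 58.5 in pDCs (SD, n = 2 each), against 8.96 ± 5.07 in B cells (n = 3), and was higher in pDCs than in B cells, all under the floor, by at least 2.29 ± 0.31 (adjusted p = 0.000182). Vsir, which encodes the coinhibitory molecule VISTA, was higher in pDCs than in B cells (2.33 ± 0.24, adjusted p = 2.24e-05). Cd200, an inhibitory ligand for myeloid cells, was lower in cDCs than in pDCs (-2.42 ± 0.32, adjusted p = 0.000127).

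The genes whose floored log2 signals were most like each member's over the 13 arrays were listed, 3 for each. For Cd80 they were Adgra2, Mefv and Igsf6 (r = 0.995, 0.994 and 0.994), for Cd86 C9orf72, Nop9 and Lpcat1 (0.966, 0.941 and 0.933), and for Icosl Stap1, Cd40 and Map2k1 (0.956, 0.953 and 0.951). For Cd274 they were Trem3, Cdhr3 and Bmp8a (0.955, 0.949 and 0.941), and for Pdcd1lg2 Ptchd1, Bmp8a and Cd274 (0.934, 0.905 and 0.889). For Cd40 they were Lrrk2, Apoe and Btk (0.982, 0.979 and 0.975), and for Cd83 Rasgrp3, Trim7 and Lrrk2 (0.983, 0.982 and 0.980). Bmp8a stood on the lists of both PD-1 ligands and Lrrk2 on those of Cd40 and Cd83, which correlated with each other at 0.950. Between the members, Cd86 and Pdcd1lg2 were the least alike (r = 0.0288). The arrays share populations and scan days, so these values describe profiles.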

How the data were processed

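The deposited values were the MAS5 signals of 13 Affymetrix mouse genome arrays, which the authors made from 2 rounds of amplification and scaled to a target intensity of 100, with no floor. Scan files deposited with each array gave only scan day, chip lot and RNA amount. Of 45101 probe sets, the platform annotation named 1 gene for 34945, several for 932 and none for 9211, and 13 control probe sets that carried a symbol were left out. Symbols were updated through gene ID for 34741. The probe set with the highest mean stood for a gene. Signals were floored at 20, log2 transformed and kept where all arrays of at least 1 population reached 50, which left 9379 genes. Means of the 6 populations were fitted over the 13 arrays with limma (version 3.58.1 in R 4.3.3; 7 residual and 3.56 prior degrees of freedom), two-sided, with Benjamini-Hochberg adjustment over all genes tested and a threshold of 0.05. Intervals are 95%. The script was tested on simulated data.

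The members and the gene and marker lists were chosen with earlier results of these data known. The text names all members, the 3 genes most like each tested member and listed genes that passed. GEO's labels do not say that replicates share animals, and p-values measure the spread between these arrays, whose number limits the precision. Alternatives covered normalization (quantile, invariant rank), floor, filter, probe set choice, the variance model, blocks and leaving out each array; those restricted to 1 scan day or to B cell replicate 1 were added after the data were seen. The PD-1 ligand gene order was read from RefSeq (GRCm38.p6). Human and public arrays of the study were not analysed here.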

Additional observations from a re-analysis of the deposited data

How the results depend on the processing

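The 33 member differences called (28 in the 6 comparisons, the rest of B from NK cells, which had 1 alternative each) kept their direction in all 731 alternative values and their call in 696; the 16 not called gave 352 values, of which 23 changed sign and 8 passed the threshold. The number of members called stayed within 1.5 times for cDCs against pDCs, pDCs against B cells and antigen-presenting against NK and CD8 T cells under every alternative. CD8α against CD11b cDCs gave 3 members without a floor, against 6. cDCs against B cells gave 1 without a floor and 1 with the mean of probe sets, 5 with the name prefix of the samples (2 sets of arrays) as a block, 4 with B cell replicate 1 alone, and 2 to 4 when 1 array was left out. NK against CD8 T cells gave 0 with a floor of 50 and 0 with the prefix as a block, and 0 to 2 when 1 array was left out (0 without NK cell replicate 2 or CD8 T cell replicate 1, 2 without B cell replicate 1). Where leaving out an array left a population with 1, that array was assumed to vary like those of the other populations. Fitting only the arrays compared, 5 members were tested for pDCs against B cells and 2 for NK against CD8 T cells. Only B cells had arrays of both prefixes. The prefix block was therefore set by B cell replicate 1 against replicates 2 and 3 and is not separate from the choice of B cell array. The cause of these changes was not tested.

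Sign changes were all in differences that were not called. For CD8α against CD11b cDCs, Cd83 was -0.05 after quantile normalization, -0.09 after invariant rank normalization and -0.04 to 0.26 when 1 array was left out (-0.04 without CD8α cDC replicate 1). For cDCs against B cells, Cd83 was -0.07 after quantile normalization, -0.01 with the replicate block, -0.03 with the prefix block, -0.03 with B cell replicate 1 alone and -0.01 to 0.15 when 1 array was left out (-0.01 without B cell replicate 3), and Pdcd1lg2 was -0.08 without a floor, -0.06 with the replicate block, -0.76 with the prefix block (adjusted p = 0.0176), -0.76 with B cell replicate 1 alone and -0.06 to 0.69 when 1 array was left out (-0.01 without B cell replicate 2, -0.06 without replicate 3). For antigen-presenting against NK and CD8 T cells, Pdcd1lg2 was -0.77 without a floor and -0.34 with the prefix block. For NK against CD8 T cells, the prefix block gave -0.48 for Cd274, -0.49 for Pdcd1lg2 and -0.65 for Icosl, and leaving out 1 array gave -0.24 to 0.25 for Cd274 and -0.13 to 0.43 for Icosl, with both below 0 without NK cell replicate 2 (-0.21 and -0.13) and without CD8 T cell replicate 1 (-0.24 and -0.05).

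Quantile normalization moved the median of all genes to 0.13 for NK against CD8 T cells. Correlations of the deviations of same-numbered arrays ran from -0.199 to 0.184, with 8 of 30 above 0.1. Outside B cells, both replicate numbers gave the same value (0.178 for CD8α with CD11b cDCs), so the 30 are not independent. In the paper, DCs and NK cells came from separate sorting experiments on spleen pools, so arrays of different populations may share an experiment. Which arrays do is not stated. As numbering may not follow experiment, this check cannot show whether arrays pair. The replicate block changed no count of calls. Treating scan day as a random effect (consensus correlation -0.0589) every call was kept. As DC arrays, NK and B cell arrays, and CD8 T cell arrays shared no scan day with one another, this fit cannot separate batch from population between them. Cd80 in pDCs, B, NK and CD8 T cells, Cd40 in NK and CD8 T cells, Pdcd1lg2 in pDCs and both untested ligands lay at or near the floor, where arrays of this kind cannot order levels.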
